A study of Mus musculus with 20 samples.

Results

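Genes that release, carry, take up, store and break down lipid were followed in neutrophils from 5 sources. The set comprised Lipg, Lpl, Apod, Apoe, Cd36, Fabp5, Plin2, Pnpla2, Lipa and Acacb, which are 10 of the 51912 genes in the table and 10 of the 28762 that were tested. They were taken by symbol, with earlier results of these data known. Lipg was selected on its level in the blood of tumor mice against that of sham mice, and Apod was selected on its level in the brain against the other sources. Those values are given as a description, with no test.

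The study compared neutrophils that infiltrate different organs during pancreatic ductal adenocarcinoma (PDAC). There were 4 RNA-seq libraries in each of 5 groups, namely sham mouse blood, tumor mouse blood, brain, liver and tumor. The study used wild-type C57BL/6 mice and other genotypes, of both sexes and aged 7 to 12 weeks. Its methods do not give the sex or genotype of the sequenced mice separately. Tumor mice were killed 10 days after inoculation with KPC cells, a line from a pancreatic tumor of a genetically engineered mouse, given in the peritoneum or the pancreas, and sham mice were given PBS. The tumor is thus a graft of 1 cell line, and no organ other than blood was sampled from sham mice. Blood was drawn before perfusion, and living singlets were sorted by high CD11b, found on myeloid cells, and high Ly6G, found on neutrophils of the mouse. Replicate numbers are 1 to 4 in both blood groups and the liver, 2 to 5 in the brain, and 1, 2, 3 and 5 in the tumor. The sources used here do not say whether libraries of 1 group came from separate mice or which organs shared one, so p-values measure only the spread between libraries, which may be technical.

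Libraries held 47388245 to 54472378 counts. The label was checked against 16 neutrophil markers, whose summed level was 27583 to 99623 CPM (counts scaled to equal library size by TMM) in the libraries of blood, brain and liver. In the 4 libraries labelled as tumor neutrophils it was 4439 to 13020 CPM, below every other library. Ly6g, the gene of the sorted protein, was at 6.65 ± 5.55 CPM there (SD, n = 4) and at 56.2 to 363 CPM on average elsewhere. Krt19, a keratin of ductal epithelium, was at 635 ± 314 CPM in the tumor libraries (SD, n = 4). The tumor libraries therefore went against their label, and each result below that includes them rests on these libraries. In bulk RNA, fewer cells of a type and less RNA per cell cannot be told apart.

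Triglyceride and phospholipid travel in lipoproteins, from which lipases on the vessel wall release fatty acids. Cells take up and bind fatty acids through carriers such as CD36 and FABP5, store them as triglyceride in droplets coated by PLIN2, and draw on the stores through the lipase ATGL, the product of Pnpla2, in the cytosol or through acid lipase in the lysosome. Neutrophils hold few droplets at rest and are known to gather lipid in tumors and inflamed tissue.

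Apoe and the droplet coat gene Plin2 were higher in liver and tumor libraries than in tumor mouse blood, and Apoe was also higher in the brain. Pnpla2 was lower in the tumor than in tumor mouse blood, brain and liver by CPM, but not when expressed per neutrophil marker level. Acacb was higher in the brain than in each of the other sources it was tested against, which held almost no reads. None of these calls held with lane as a term. Lipg was present in every source of tumor mice. By CPM it was on average lowest among these in the tumor, but per neutrophil marker level it was highest there. This is a description with no test against blood. Lpl was highest on average in the liver, and its differences did not pass the test.

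**Figure D1:**
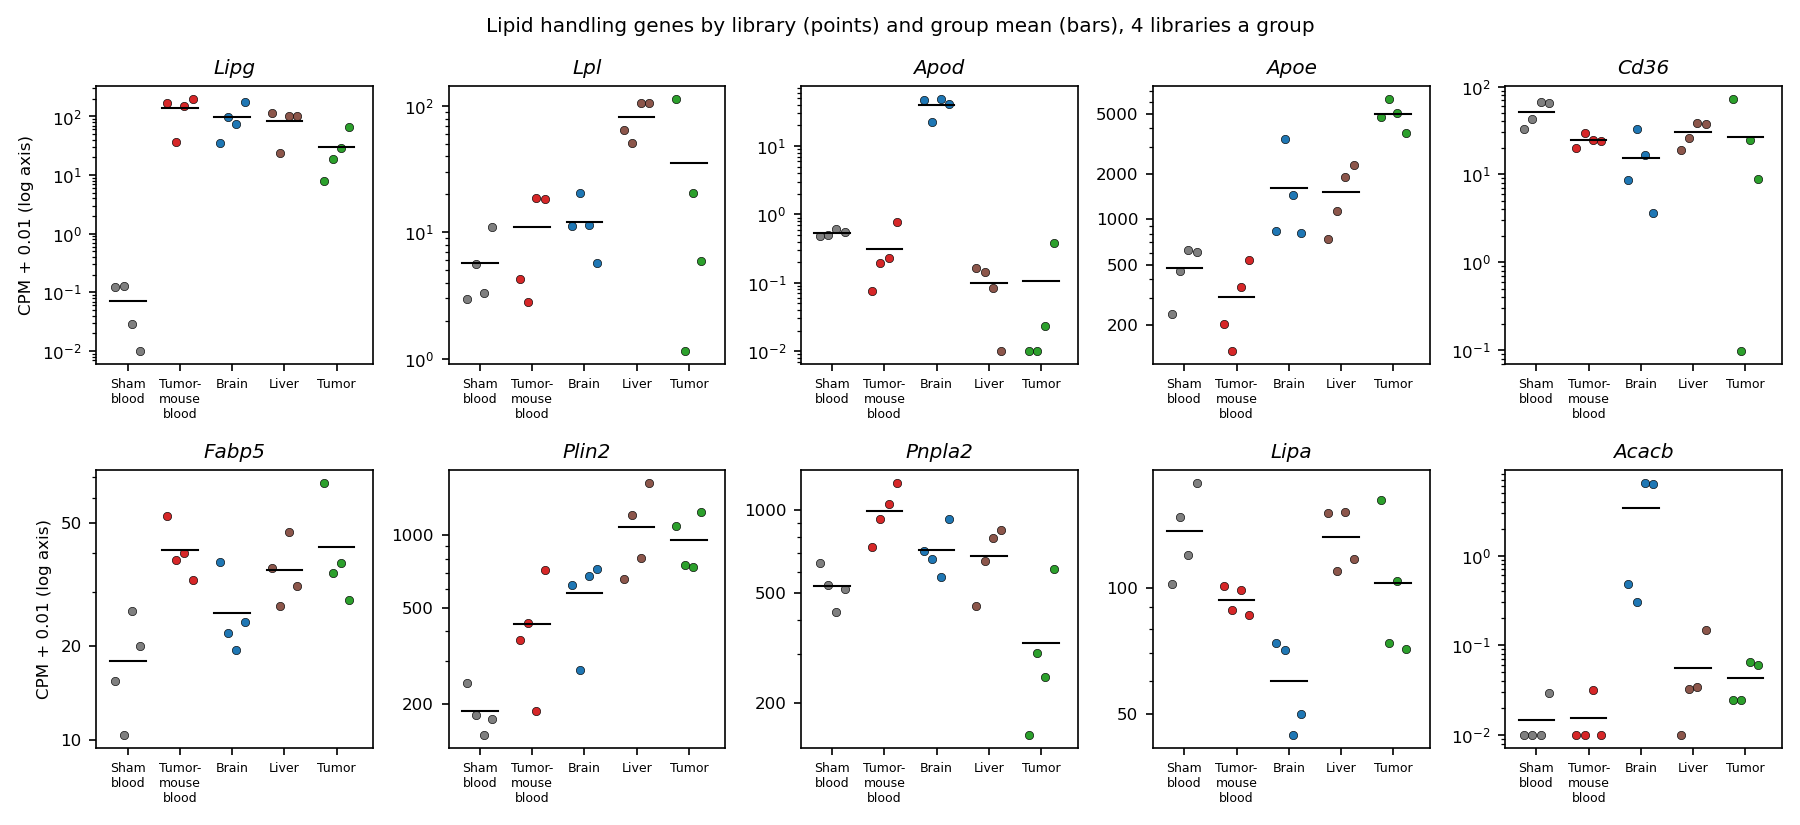
Level of each of the 10 genes in CPM + 0.01 on a log axis, with 1 point per library, ordered by replicate number within a group, and a bar at the mean of the 4 libraries of a group. Apod lies between 22.5 and 49.3 CPM in the brain and under 1 CPM elsewhere, Lipg is at 0.116 CPM or less in sham mouse blood and at 7.97 CPM or more elsewhere, and Apoe is at 3697 CPM or more in all tumor libraries.

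All tests below were two-sided quasi-likelihood tests of edgeR, from 1 fit to the 20 libraries, with Benjamini-Hochberg adjustment over the 28762 genes, and a gene was called at an adjusted p under 0.05. The comparisons share libraries, so they are given side by side and not as independent evidence. DESeq2 is given beside edgeR as a looser test. On simulated data it called 105 unchanged genes where edgeR called 5. In tumor mouse against sham mouse blood, 1 of 9 counted genes was higher (Fabp5) and 0 were lower, where 1.63% and 1.69% of all genes were called higher and lower. For the count of 0, an unadjusted p under 0.05 gave 1 (Lipa) and DESeq2 gave 0. In the brain against tumor mouse blood, 2 of 8 were higher (Apoe and Acacb) and 0 lower, beside 3.56% and 1.41% of all genes, and the count of 0 became 2 at an unadjusted p under 0.05 and 0 by DESeq2. In the liver against tumor mouse blood, 2 of 9 were higher (Apoe and Plin2) and 0 lower, beside 3.98% and 1.2%, and the count of 0 stayed 0 at an unadjusted p under 0.05 and by DESeq2. In the tumor against tumor mouse blood, 2 of 9 were higher (Apoe and Plin2) and 1 lower (Pnpla2), beside 13.3% and 10.3%. All genes include many with few reads, so these shares are lower than among well-read genes. In this comparison 3833 higher and 2973 lower of 28762 became 4225 and 3335 of 17112 after a filter on low counts. The shares beside the gene lists below carry the same limit.

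In the brain against the tumor, 2 of 9 genes were higher (Pnpla2 and Acacb) and 2 lower (Apoe and Lipa), beside 8.54% higher and 6.87% lower among all genes. In the brain against the liver, 1 of 9 was higher (Acacb) and 1 lower (Lipa), beside 1.05% and 1.57%. In the tumor against the liver, 1 of 10 was higher (Apoe) and 1 lower (Pnpla2), beside 2.38% and 6.4%. The median log2 fold change of the genes counted lay between -0.73, in the brain against the tumor, and 0.50, in the liver against tumor mouse blood, where the median of all genes tested was 0 in each comparison. Among the 12275 genes at a mean of 1 CPM or more, the median lay between -0.071 and 0.134. In comparisons with the brain Apod was left out of the count, and Lipg was left out in each comparison with tumor mouse blood, whose libraries selected it.

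**Figure D2:**
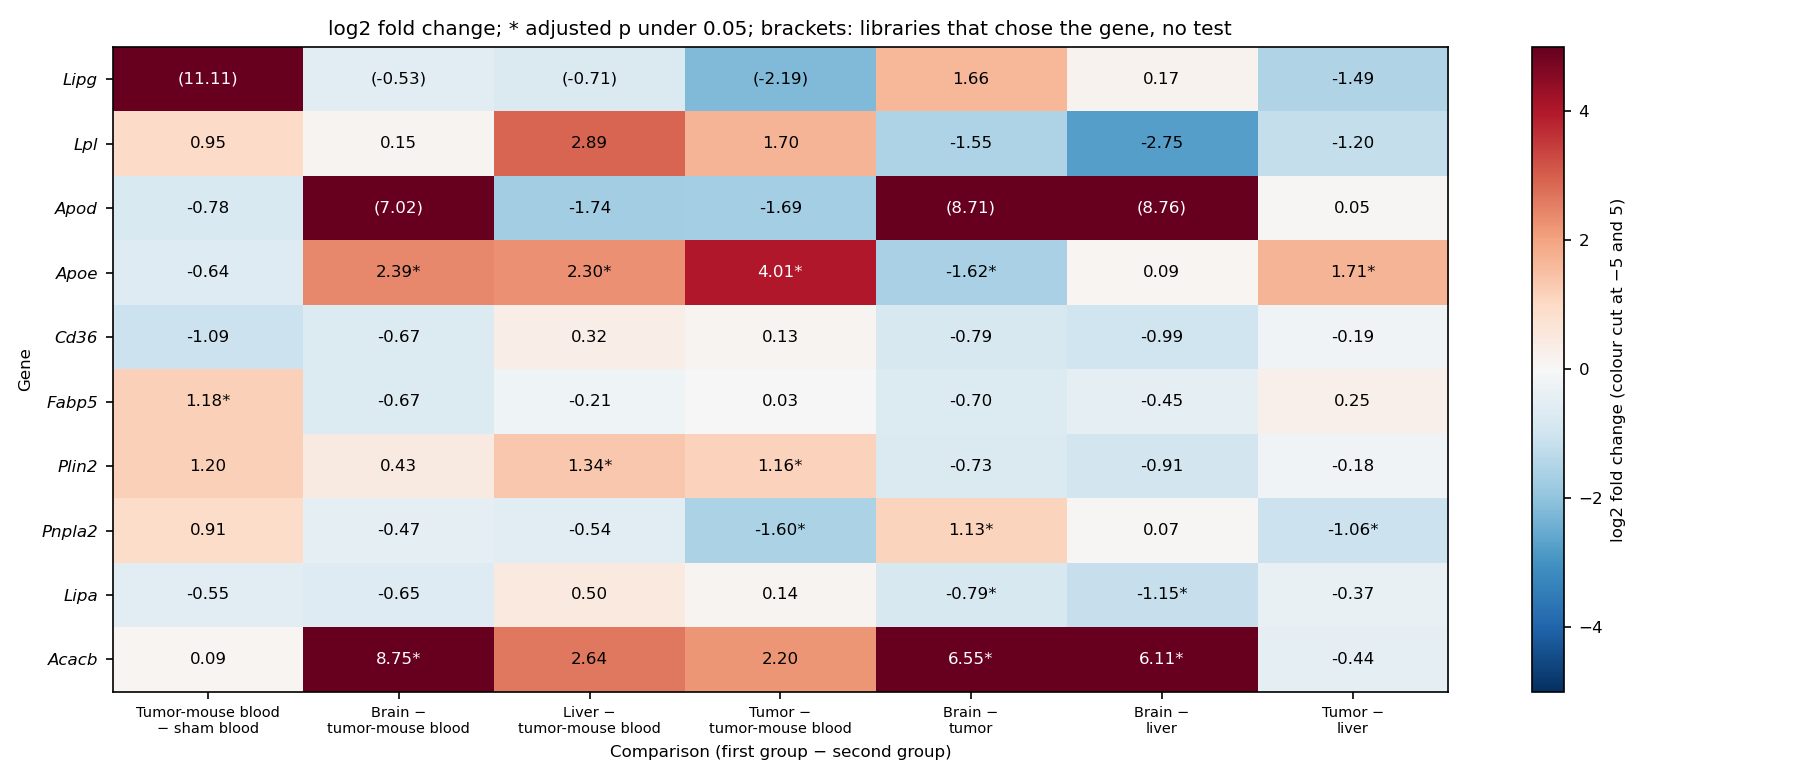
The log2 fold change of each gene (rows) in each of the 7 comparisons (columns), as first group minus second group, with red for higher in the first group and an asterisk for an adjusted p under 0.05. Values in brackets rest on libraries that selected the gene and carry no test. Apoe has an asterisk in 5 of 7 comparisons, and Lpl and Cd36 in 0. The values of Acacb against blood rest on 1 count in the blood libraries.

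Lipg encodes endothelial lipase, a phospholipase that acts on high-density lipoprotein and is best known from vessel walls. It lies on chromosome 18 of mm10. It was at 0.113, 0.116, 0.0195 and 0 CPM in sham mouse blood, 12 reads in all. In tumor mouse blood it was at 169, 36.2, 149.5 and 202 CPM in replicates 1 to 4. The groups did not overlap, and the fitted log2 fold change was 11.11, which is the value that selected the gene.

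Lipg was read in every organ of tumor mice. It was at 35.7, 97.2, 74.1 and 178 CPM in the brain, replicates 2 to 5. The liver held 115, 23.7, 102 and 101 CPM, replicates 1 to 4. In both organs the range overlapped that of tumor mouse blood, with a log2 difference of -0.53 in the brain and -0.71 in the liver. These differences are given with no test, because the high level in that blood selected the gene.

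In the tumor Lipg was at 7.97, 19.05, 28.6 and 66.1 CPM. Only the library of replicate 5 reached into the range of tumor mouse blood. The level was 30.4 ± 25.2 CPM against 139 ± 71.8 CPM (SD, n = 4), a log2 fold change of -2.19, also given with no test. Neutrophil markers moved with it, since 15 of the 16 were also lower in the tumor than in tumor mouse blood, beside 10.3% of all genes. Expressed per 1000 CPM of these markers, a ratio chosen after the values were seen, Lipg was 2.40, 0.577, 2.58 and 4.15 in tumor mouse blood and 1.80, 1.83, 4.59 and 5.08 in the tumor. By that ratio the libraries of both sources overlapped. The ratio was 0.358 to 2.19 in the brain and 0.481 to 3.67 in the liver, which overlapped the tumor as well. On average the ratio was highest in the tumor. In the test of counts, the tumor libraries differed from the brain and the liver by 1.66 (brain minus tumor, adjusted p = 0.0705) and -1.49 (tumor minus liver, adjusted p = 0.150) on the log2 scale. Without tumor replicate 5 these became 2.37 (adjusted p = 0.0121) and -2.20 (adjusted p = 0.0267), and without brain replicate 2 the first became 1.89 (adjusted p = 0.0453).

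Genes whose pattern was most like that of Lipg were found by Pearson's r of log2 CPM over the 20 libraries among 8464 genes. They were Nos2 (r = 0.956), which encodes inducible nitric oxide synthase, Adamtsl4 (0.944), Ddi2 (0.938), Prnp (0.930), the prion protein gene, and Pdk3 (0.923), a kinase of pyruvate dehydrogenase. Nos2 was at 0.0290 CPM on average in sham mouse blood and at 80.7 to 119 CPM in the other groups. The points share the contrast of 4 sham libraries with 16 libraries of tumor mice. Between the tumor and tumor mouse blood the means of Nos2 went the other way from those of Lipg, with 119 CPM in the tumor and 87.9 CPM in the blood.

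Lpl encodes lipoprotein lipase, which is made by fat, muscle and macrophages and releases fatty acids from triglyceride-rich lipoproteins (mm10, chromosome 8 from 68880491 to 68907448). It was at 64.3, 51.1, 106 and 106 CPM in the liver. It was at 4.30, 2.80, 18.6 and 18.3 CPM in tumor mouse blood and at 2.94, 5.601, 3.28 and 11.04 CPM in sham mouse blood. Every liver library lay above every blood and brain library.

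The test did not call that difference. The liver was higher than tumor mouse blood by 2.89 ± 0.90 on the log2 scale (SE, adjusted p = 0.0655, higher in 4 of 4 libraries), and the brain was lower than the liver by 2.75 ± 0.89 (log2 fold change -2.75, SE, adjusted p = 0.116). DESeq2 gave adjusted p = 0.00636 and 0.0178, and edgeR with only the compared groups in the model gave 0.00916 and 0.00203. The brain held 11.2, 20.4, 11.4 and 5.73 CPM, within the range of tumor mouse blood but for replicate 3.

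In the tumor Lpl was at 115, 1.14, 20.7 and 5.87 CPM, the widest range of any source. Replicate 1 held the highest level of all 20 libraries and replicate 2 the lowest. Tumor replicate 1 also had the highest sums of macrophage and microglia markers (5927 CPM) and fibroblast markers (791 CPM) of these libraries, and its B cell marker sum was 834 CPM, where the other tumor libraries had 33.8 to 175 CPM. Whether these cells carried the Lpl reads was not tested. The tumor minus liver difference of -1.20 (adjusted p = 0.423) became -3.15 (adjusted p = 0.0174) without replicate 1. The difference from tumor mouse blood, 1.70 (adjusted p = 0.161), became 2.19 (adjusted p = 0.0376) without replicate 2. Adipocyte markers were near 0 in all groups, with a summed level of 2.40 to 18.96 CPM over 10 genes, and Plin1, which coats the droplets of fat cells, had no read in brain, liver and tumor.

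Of 13 genes for lipase partners and lipoprotein remodelling, 5 were higher and 2 lower in the tumor than in tumor mouse blood, where 13.3% and 10.3% of all genes were called. In the other comparisons 0 to 2 passed in each direction, beside 1.05% to 8.54% of all genes. Against tumor mouse blood 0 were higher in the liver and the brain. There an unadjusted p under 0.05 gave 8 and 4 higher, and DESeq2 gave 5 and 3. The other counts of 0 became 0 to 2 at an unadjusted p under 0.05 and stayed 0 by DESeq2. The median log2 fold change of the list against that blood was 1.68 in the liver, 0.60 in the brain and 1.40 in the tumor. Angptl4, which encodes a secreted inhibitor of lipoprotein lipase, was at 0.0154 ± 0.0104 CPM in sham mouse blood, 3 reads in all, and at 2.01 ± 1.81 CPM in tumor mouse blood (SD, n = 4). The ratio of these pooled reads was 132, with an exact 95% counting interval of 44.9 to 644, and the difference passed the test (adjusted p = 0.000250). In the tumor Angptl4 reached 43.5 ± 23.1 CPM, higher than in tumor mouse blood (adjusted p = 0.000136), the liver (adjusted p = 0.00772) and the brain (adjusted p = 0.0270). The difference from the brain was lost without brain replicate 3, without tumor replicate 1 or 3 and with lane as a term (adjusted p up to 0.0780). The 2 lower genes were Furin and Sel1l, which cut lipases and help them leave the endoplasmic reticulum, respectively, with log2 fold changes of -0.62 and -0.65 in the tumor (adjusted p = 0.0138 and 0.00441). Both were also lower in the brain than in that blood, by log2 fold changes of -0.74 and -0.58 (adjusted p = 0.0168 and 0.0359). With lane as a term neither passed in brain or tumor (adjusted p of 0.190 to 0.416). Furin was also not called without tumor mouse blood replicate 2 in either organ or without tumor replicate 1 or 2, and Sel1l in the brain without tumor mouse blood replicate 2, 3 or 4 or brain replicate 2 or 4.

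Apod encodes apolipoprotein D, a small lipid carrier of the lipocalin family, which is unlike other apolipoproteins in structure and is made in the nervous system by glia and perivascular cells (mm10, chromosome 16 from 31296192 to 31314808). It was at 47.3, 22.5, 49.3 and 40.9 CPM in the brain, replicates 2 to 5. In the other 16 libraries it was at 0 to 0.755 CPM. These values selected the gene, and the fitted differences of the brain were 7.02 from tumor mouse blood, 8.71 from the tumor and 8.76 from the liver on the log2 scale.

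The comparisons of Apod that did not involve the brain found no call. The libraries in them were the low side when the gene was selected and held few reads. Sham mouse blood held 0.475, 0.484, 0.605 and 0.537 CPM and tumor mouse blood 0.0654, 0.183, 0.221 and 0.755 CPM, ranges that overlapped (log2 fold change -0.78, SE 0.93, adjusted p = 0.814). Liver libraries held 0.153, 0.134, 0.0728 and 0 CPM, 17 reads in all. Tumor libraries held 0, 0, 0.0137 and 0.371 CPM, 23 reads in all. The difference of tumor from liver was 0.05 (adjusted p = 1) and became -3.69 (adjusted p = 0.0326) without tumor replicate 5, so its direction rests on 1 library. The difference of tumor from tumor mouse blood, -1.69 (adjusted p = 0.223), became -5.39 (adjusted p = 0.000570) without it. That value rests on tumor libraries at 0, 0 and 0.0137 CPM.

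Markers of several cell types moved with Apod. Of 15 endothelial markers, 13 were higher in the brain than in tumor mouse blood, beside 3.56% of all genes. Of these 15, 6 were higher than in the tumor and 6 higher than in the liver, beside 8.54% and 1.05%. Their summed level was 287 to 975 CPM in the brain against 38.1 to 49.8 CPM in that blood. Against that blood, 5 of 10 pericyte and smooth muscle, 4 of 10 astrocyte, 4 of 10 choroid plexus and 4 of 11 fibroblast markers were also higher. So were 12 of 19 macrophage and microglia and 1 of 10 oligodendrocyte markers, with 0 lower in each list, beside 1.41% of all genes. Cldn5, a tight junction gene of brain endothelium, was at 37.0 ± 32.7 CPM in the brain and at 0.475 CPM or less on average elsewhere. Ttr, a product of the choroid plexus, was at 1648 CPM in brain replicate 4 and at 18.3 to 108 CPM in the other brain libraries. Apod was at 49.3 CPM in brain replicate 4 and at 47.3 CPM in replicate 2, where Ttr was lowest. The part of these cells in the Apod reads was not tested.

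The genes most like Apod over the 20 libraries were Ackr1 (r = 0.927), a chemokine-binding receptor of venules, Slco1a4 (0.910), a transporter of brain endothelium, Myrip (0.903), Lta4h (0.903), which encodes leukotriene A4 hydrolase, and Cebpe (0.895), a transcription factor of maturing granulocytes. Ackr1, Slco1a4 and Myrip had means under 0.06 CPM in every group but the brain. Lta4h and Cebpe were also read in the other groups, Cebpe at 10.1 to 28.7 CPM and Lta4h at 67.5 to 112 CPM on average, against 59.0 and 352 CPM in the brain. The brain libraries as a group set each of these correlations.

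Apoe encodes apolipoprotein E, the ligand through which many cells take up lipoproteins, and is made by hepatocytes, macrophages, microglia and astrocytes (mm10, chromosome 7 from 19696109 to 19699188). Per kilobase of exon it was the most abundant of the 10 genes in the brain, liver and tumor, with 753, 707 and 2312 CPM per kb, and Pnpla2 was in tumor mouse blood, with 330 against 143 CPM per kb. Apoe was at 236, 453, 620 and 602 CPM in sham mouse blood and at 203, 134, 354 and 534 CPM in tumor mouse blood. Those groups overlapped (log2 fold change -0.64, SE 0.45, adjusted p = 0.540).

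All 3 organs held more. Apoe was at 830, 3372, 1433 and 805 CPM in the brain, at 740, 1127, 1906 and 2275 CPM in the liver and at 4755, 6276, 5046 and 3697 CPM in the tumor. No library of an organ overlapped tumor mouse blood. The log2 fold changes were 2.39 ± 0.48 in the brain (SE, adjusted p = 0.00389), 2.30 ± 0.47 in the liver (SE, adjusted p = 0.00458) and 4.01 ± 0.51 in the tumor (SE, adjusted p = 4.2e-06). The tumor libraries did not overlap those of the brain or liver either, with a log2 fold change of -1.62 for brain minus tumor (SE 0.46, adjusted p = 0.0191) and 1.71 for tumor minus liver (SE 0.46, adjusted p = 0.0213). The first was not called without brain replicate 2 (adjusted p = 0.0533) or 5 (0.0522), nor the second without liver replicate 1 (0.0652) or 2 (0.0672). Brain and liver differed by 0.09 (adjusted p = 1), with a 95% interval of -0.85 to 1.03.

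Markers of macrophages and microglia, cells that make apolipoprotein E, moved with it. Of 19 such markers, 12 were higher and 0 lower in the brain than in tumor mouse blood, 10 and 0 in the liver, and 14 and 0 in the tumor. Of all genes, 3.56%, 3.98% and 13.3% were called higher in these comparisons and 1.41%, 1.2% and 10.3% lower. Their summed level was 1079 to 1134 CPM in tumor mouse blood, 1482 to 5469 CPM in the brain, 1854 to 2688 CPM in the liver and 3379 to 5927 CPM in the tumor. Brain replicate 3 had both the highest sum and the highest Apoe of the brain. Clec4f, which defines Kupffer cells, had no read in any library of blood or brain. Per 1000 CPM of these markers, a ratio chosen after the values were seen, Apoe spanned 124 to 482 in tumor mouse blood. The brain spanned 392 to 813, the liver 399 to 890 and the tumor 802 to 1516. By that ratio every tumor library lay above every tumor mouse blood library, and the brain and the liver overlapped that blood. How much of the Apoe reads came from such cells was not tested.

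**Figure D3:**
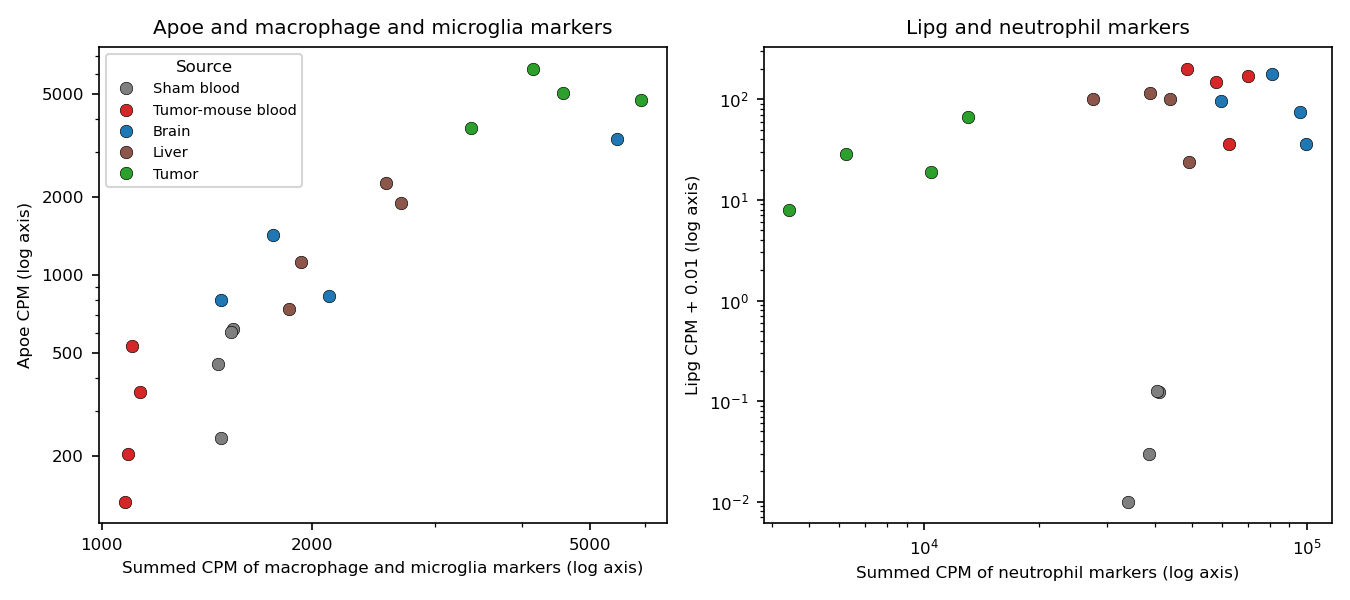
Left, Apoe in CPM against the summed CPM of 19 macrophage and microglia markers, and right, Lipg in CPM + 0.01 against the summed CPM of 16 neutrophil markers, with 1 point per library and log axes. Apoe and its markers are lowest in tumor mouse blood (134 to 534 CPM of Apoe) and highest in the tumor (3697 to 6276 CPM) and in brain replicate 3. Tumor libraries have the lowest neutrophil sums, and sham mouse blood lies apart from all other libraries in Lipg at a like neutrophil sum.

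Receptors and carriers of fatty acids changed less. Cd36 encodes the scavenger receptor that takes up long-chain fatty acids and oxidized lipoprotein, and is also found on platelets, macrophages and endothelium (mm10, chromosome 5 from 17781690 to 17888801). It was at 33.2, 42.2, 67.4 and 64.1 CPM in sham mouse blood and at 19.7, 29.4, 24.4 and 23.8 CPM in tumor mouse blood. These groups did not overlap, but the difference did not pass the test (log2 fold change -1.09, SE 0.85, adjusted p = 0.613). With only the compared groups in the model it did (adjusted p = 0.0340). B cell markers fell alongside, from 1081 to 2104 CPM summed in sham mouse blood to 84.5 to 149 CPM in tumor mouse blood. Of these markers 7 of 10 were lower, beside 1.69% of all genes. Macrophage and microglia sums fell from 1469 to 1545 CPM to 1079 to 1134 CPM, with 4 of 19 markers higher and 3 lower (1.63% and 1.69% of all genes). Endothelial sums fell from 53.3 to 150 CPM to 38.1 to 49.8 CPM, and platelet sums overlapped. The part of these cells in the Cd36 difference was not tested, nor in that of any other gene between the blood groups.

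Cd36 scattered most in the organs. The tumor libraries were at 72.8, 0.0874, 24.5 and 8.86 CPM, and the brain libraries at 8.72, 32.5, 16.4 and 3.63 CPM. Tumor replicate 1 was the highest of all libraries for both Cd36 and Lpl, and replicate 2 the lowest for both. In the liver Cd36 was at 18.8 to 38.4 CPM with a median of 32.0 CPM. None of its 7 comparisons was called.

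Fabp5 encodes a cytosolic fatty acid-binding protein of epidermis and myeloid cells (mm10, chromosome 3 from 10012548 to 10016607). It was at 15.4, 10.4, 26.0 and 20.01 CPM in sham mouse blood and at 52.5, 37.9, 40.1 and 32.6 CPM in tumor mouse blood. The groups did not overlap, and tumor mouse blood was higher by 1.18 ± 0.30 on the log2 scale (SE, adjusted p = 0.0315, higher in 4 of 4 libraries). The call was lost without sham replicate 1 (adjusted p = 0.0906), 2 (0.113) or 4 (0.0604) and without tumor mouse blood replicate 1 (0.0958) or 3 (0.0639).

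In the organs Fabp5 was at 19.5 to 37.2 CPM in the brain, 26.9 to 46.7 CPM in the liver and 28.1 to 67.2 CPM in the tumor, each overlapping tumor mouse blood. No organ comparison of Fabp5 was called. Its log2 fold change was 0.03 in the tumor against tumor mouse blood, with a 95% interval of -0.59 to 0.66, and -0.70 in the brain against the tumor (adjusted p = 0.125). The latter was called by DESeq2 (adjusted p = 0.0336) and without brain replicate 2 (adjusted p = 0.0474).

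Of 16 other genes for uptake of lipoprotein and fatty acid, 8 were higher and 1 lower in the tumor than in tumor mouse blood (13.3% and 10.3% of all genes). In the liver 4 were higher (3.98% of all genes), and in the brain 4 were higher (3.56%). Between the blood groups 0 passed, where an unadjusted p under 0.05 gave 2 lower and DESeq2 gave 1 lower. Msr1 and Olr1, scavenger receptors of macrophages and endothelium that bind modified lipoprotein, rose in the liver against tumor mouse blood, Msr1 to 156 ± 39.7 from 21.6 ± 17.04 CPM (SD, n = 4, adjusted p = 0.0264) and Olr1 to 68.3 ± 44.8 from 3.41 ± 1.53 CPM (SD, n = 4, adjusted p = 9.0e-06). The Msr1 call was lost without tumor mouse blood replicate 1 or liver replicate 3 or 4 (adjusted p up to 0.0933). Lrp1, a large lipoprotein receptor, was at 19.01 ± 6.86 CPM in that blood and rose to 89.8 ± 40.3 CPM in the liver (adjusted p = 0.00889) and 95.03 ± 20.3 CPM in the tumor (adjusted p = 0.00143). Slc27a4, a fatty acid transport protein, was at 80.6 ± 28.0 CPM in tumor mouse blood, rose to 163 ± 32.6 CPM in the brain (adjusted p = 0.0250) and fell to 34.2 ± 6.41 CPM in the tumor (adjusted p = 0.00126). The brain call was lost without tumor mouse blood replicate 1, 3 or 4, without brain replicate 2, 4 or 5 and with lane as a term (adjusted p up to 0.126), and the tumor call was also lost with lane as a term (0.0597). Brain libraries also exceeded tumor libraries by 2.26 ± 0.27 on the log2 scale (SE, adjusted p = 4.0e-06). The median log2 fold change of the list was 2.05 in the tumor, 1.29 in the liver and 1.03 in the brain, against 0 over all genes. The macrophage marker sums given with Apoe rose in the same comparisons, and their part was not tested.

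Plin2 encodes the coat protein of lipid droplets in most cells other than fat cells (mm10, chromosome 4 from 86648386 to 86670060). It was at 244, 179, 148 and 172 CPM in sham mouse blood and at 367, 432, 187 and 719 CPM in tumor mouse blood. In the liver it was at 657, 1215, 805 and 1653 CPM, and in the tumor at 1089, 750, 738 and 1243 CPM. The brain held 622, 275, 679 and 726 CPM. All tumor libraries lay above all blood libraries, liver replicate 1 lay under the highest library of tumor mouse blood, and brain replicate 3 lay apart below the other brain libraries.

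Against tumor mouse blood, Plin2 was higher by 1.34 ± 0.35 on the log2 scale in the liver (SE, adjusted p = 0.0274) and by 1.16 ± 0.35 in the tumor (SE, adjusted p = 0.0186). The liver call was lost without tumor mouse blood replicate 1 (adjusted p = 0.0889), 2 (0.0687) or 3 (0.0885), without liver replicate 2 (0.0600) or 4 (0.128), and with only these groups in the model (0.0587). The tumor call was lost without tumor mouse blood replicate 3 (adjusted p = 0.0570). The rise from sham to tumor mouse blood was 1.20 ± 0.35 (SE, adjusted p = 0.0681), and it was called without tumor mouse blood replicate 3 (adjusted p = 0.0183) and by DESeq2 (0.0189). The brain was not called against tumor mouse blood, the tumor or the liver (adjusted p of 0.165 to 0.498).

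Pnpla2 encodes ATGL, the lipase that opens triglyceride breakdown in the droplet (mm10, chromosome 7 from 141455198 to 141460743). It was at 739, 932, 1059 and 1262 CPM in tumor mouse blood and at 643, 538, 428 and 517 CPM in sham mouse blood. These groups did not overlap, and the difference of 0.91 ± 0.30 on the log2 scale had an adjusted p of 0.116. It was called by DESeq2 (adjusted p = 0.0361) and with only these groups in the model (0.0173). Neutrophil marker sums rose as well, from 34152 to 41152 CPM in sham mouse blood to 48623 to 70340 CPM in tumor mouse blood. Per 1000 CPM of these markers, Pnpla2 was 11.1 to 15.6 in sham and 10.5 to 26.0 in tumor mouse blood, which overlapped. In the tumor Pnpla2 was at 153, 303, 248 and 612 CPM, below every library of tumor mouse blood (log2 fold change -1.60, SE 0.31, adjusted p = 0.000460).

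Brain and liver lay between. Pnpla2 was at 710, 664, 575 and 931 CPM in the brain and at 448, 653, 792 and 851 CPM in the liver, and the tumor overlapped both through replicate 5. Brain minus tumor was 1.13 ± 0.30 (SE, adjusted p = 0.0126), not called without brain replicate 5 (0.0509), without tumor replicate 3 (0.0566) or with only the compared groups (0.0743). Tumor minus liver was -1.06 ± 0.30 (SE, adjusted p = 0.0296), not called without liver replicates 2, 3 or 4 or tumor replicates 1, 2 or 3 (adjusted p of 0.0593 to 0.107), with lane as a term (0.0788) or with only the compared groups (0.109). Neutrophil marker sums moved with these differences. Per 1000 CPM of neutrophil markers, Pnpla2 was 10.5 to 26.0 in tumor mouse blood and 29.2 to 47.0 in the tumor, the opposite order. By the same ratio it was 5.98 to 11.5 in the brain, below the tumor, and 11.5 to 30.9 in the liver, which overlapped the tumor. The sign of its difference in the tumor thus depends on what it is expressed against.

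In the organs against tumor mouse blood, inhibitors of ATGL had larger fold changes than Pnpla2 or Plin2. G0s2 encodes a small protein that binds and inhibits ATGL. It was at 59.4, 168, 37.1 and 65.0 CPM in tumor mouse blood, at 4024, 1375, 1867 and 1906 CPM in the brain, at 1412, 2722, 3300 and 2134 CPM in the liver and at 1202, 2603, 1285 and 2338 CPM in the tumor. No organ library overlapped the blood of tumor or sham mice. The log2 fold changes were 4.80 ± 0.46 (SE, adjusted p = 1.5e-06), 4.86 ± 0.47 (SE, adjusted p = 5.2e-07) and 4.50 ± 0.46 (SE, adjusted p = 2.8e-07) in brain, liver and tumor, and the organs did not differ from each other in the test (adjusted p of 0.630 to 1).

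Hilpda encodes a droplet protein that also inhibits ATGL and is known to be induced by low oxygen. It was at 1.68, 3.62, 1.74 and 10.8 CPM in tumor mouse blood. It was at 103, 34.1, 166 and 130 CPM in the brain, 154, 400, 374 and 701 CPM in the liver and 730, 545, 551 and 773 CPM in the tumor. The organs stood in that order of means, with brain minus tumor at -2.59 ± 0.58 (SE, adjusted p = 0.00315) and tumor minus liver at 0.67 ± 0.55 (SE, adjusted p = 0.493). Against tumor mouse blood the log2 fold changes were 4.60 ± 0.64 in the brain (SE, adjusted p = 0.000134), 6.51 ± 0.70 in the liver (SE, adjusted p = 2.7e-06) and 7.18 ± 0.72 in the tumor (SE, adjusted p = 2.4e-07).

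**Figure D4:**
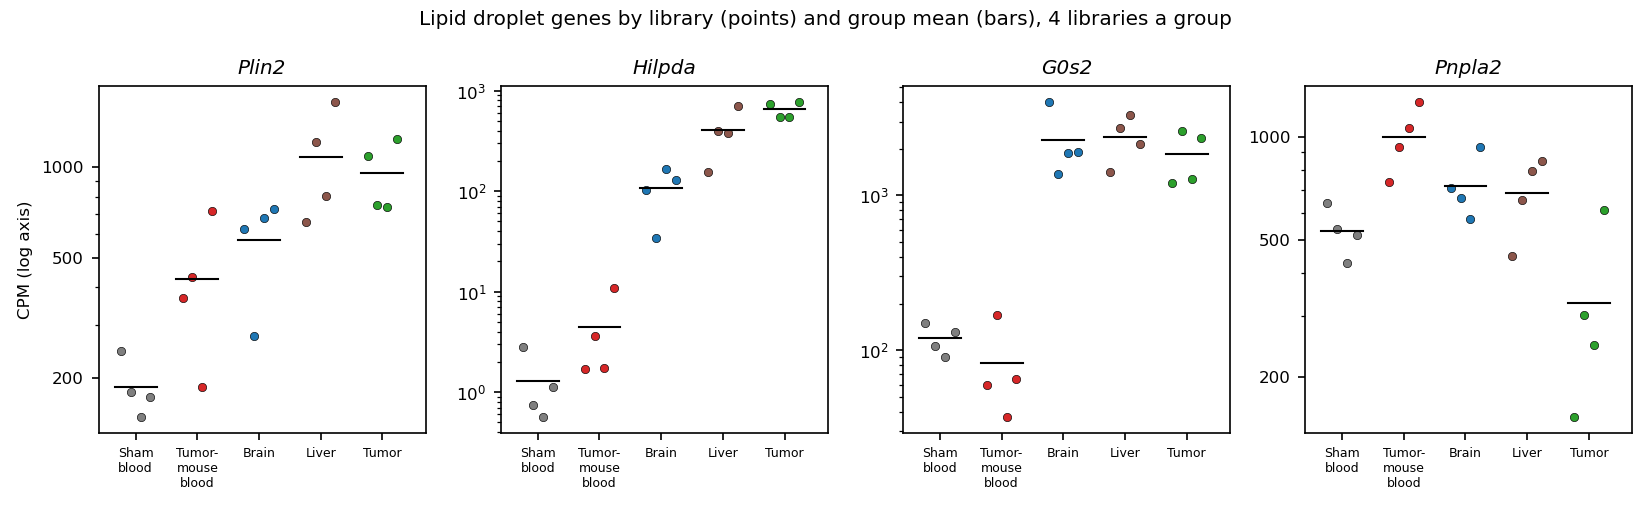
Level in CPM on a log axis of Plin2, Hilpda, G0s2 and Pnpla2, with 1 point per library, ordered by replicate number, and a bar at the group mean. G0s2 and Hilpda of every organ library lie above all blood libraries, by means of 2293, 2392 and 1857 CPM against 82.3 CPM for G0s2, while Pnpla2 is highest in tumor mouse blood and lowest in the tumor.

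The proximal promoters of Plin2, Hilpda and G0s2 are shown because each of these genes was higher in the liver and in the tumor than in tumor mouse blood, with the core of the hypoxia response element in capitals. The core was searched as ACGTG or GCGTG on both strands, and matches may overlap. The sequences are from RefSeq on GRCm38.p6 and run 5′ to 3′ on the strand of the gene, from 250 bases before to 25 bases after the start. Plin2 is at chr4:86670035-86670309 on the minus strand, with 3 matches, of which 2 overlap. Hilpda is at chr6:29272376-29272650 on the plus strand, with 3 matches, and is 1 of 2 RefSeq promoters of the gene. The other, at 29272238 to 29272537, held 1 match. G0s2 is at chr1:193273164-193273438 on the minus strand, with 1 match. The same core occurs in 43.8% of 32851 RefSeq promoters, each from 250 bases before to 50 after the start, so a match is a description and not a site. Promoters were found for 7 of the 10 genes.
Plin2: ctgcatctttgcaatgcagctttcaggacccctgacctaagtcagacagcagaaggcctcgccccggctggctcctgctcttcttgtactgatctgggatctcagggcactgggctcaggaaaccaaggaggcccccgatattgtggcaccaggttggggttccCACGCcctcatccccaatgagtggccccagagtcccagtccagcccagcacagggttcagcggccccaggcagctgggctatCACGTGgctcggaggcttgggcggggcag
Hilpda: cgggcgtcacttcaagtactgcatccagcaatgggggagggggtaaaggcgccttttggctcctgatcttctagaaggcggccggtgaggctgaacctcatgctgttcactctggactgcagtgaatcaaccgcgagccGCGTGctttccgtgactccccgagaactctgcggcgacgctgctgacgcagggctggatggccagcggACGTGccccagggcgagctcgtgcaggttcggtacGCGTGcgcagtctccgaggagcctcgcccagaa
G0s2: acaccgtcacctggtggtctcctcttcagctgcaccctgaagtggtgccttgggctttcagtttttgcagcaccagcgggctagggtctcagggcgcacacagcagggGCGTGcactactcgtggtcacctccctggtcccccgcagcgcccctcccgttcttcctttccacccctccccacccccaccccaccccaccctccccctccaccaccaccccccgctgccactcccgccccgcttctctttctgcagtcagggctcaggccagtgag
The promoters of Apod, Apoe, Cd36, Pnpla2 and Lipa held 0 matches to the core and that of Acacb held 2. A count of 0 is a description, which says only that these letters are not in their windows.

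Of 18 other genes of droplets and neutral lipid turnover, 5 were higher in the brain than in tumor mouse blood (3.56% of all genes), 3 were higher in the liver (3.98%), and 5 were higher and 4 lower in the tumor (13.3% and 10.3%). Between the blood groups 0 passed, where an unadjusted p under 0.05 gave 2 higher and 2 lower and DESeq2 gave 2 higher. In the brain against the tumor, 6 were higher and 3 lower (8.54% and 6.87% of all genes). Dgat1 and Dgat2 encode the enzymes of the last step of triglyceride synthesis. Dgat1 was at 742 ± 174 CPM in the brain, 305 ± 134 CPM in tumor mouse blood and 195 ± 81.9 CPM in the tumor (SD, n = 4), and the brain was higher than both (adjusted p = 0.0374 and 0.000585). The first call was lost without tumor mouse blood replicate 2, 3 or 4 or without any 1 of the 4 brain libraries (adjusted p up to 0.132). Dgat2 fell in the tumor against tumor mouse blood by 1.35 on the log2 scale (log2 fold change -1.35, SE 0.37, adjusted p = 0.00907, and 0.119 with lane as a term). Agpat2, which acts earlier in the same pathway, was lower in the tumor than in that blood (-1.45, SE 0.20, adjusted p = 8.8e-06) and higher in the brain than in the liver (1.12, SE 0.19, adjusted p = 0.00198). The median log2 fold change of the list was 0.57 in the brain, 0.12 in the liver and -0.18 in the tumor against tumor mouse blood. With genes that had no read in a group set to a bound of 3 reads per group, the median in the tumor was 0.02.

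Lipa encodes lysosomal acid lipase, which frees cholesterol and fatty acids from lipoproteins that a cell has taken up (mm10, chromosome 19 from 34492318 to 34527474). It was the steadiest of the 10 genes in tumor mouse blood, at 101, 88.7, 98.9 and 86.2 CPM. Brain libraries were at 74.0, 71.1, 44.5 and 50.1 CPM, all below those, and liver libraries at 151, 110, 153 and 118 CPM, all above. Neither difference passed, with adjusted p of 0.135 and 0.257.

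The brain was lower than the liver by 1.15 on the log2 scale (log2 fold change -1.15, SE 0.24, adjusted p = 0.0113), with no overlap. This call was lost without brain replicate 4 (adjusted p = 0.0551). Tumor libraries held 163, 74.0, 104 and 71.5 CPM and overlapped the brain. Brain minus tumor was -0.79 ± 0.24 (SE, adjusted p = 0.0305), lost without brain replicate 4 (0.0745) or 5 (0.0695), tumor replicate 1 (0.159) or 3 (0.0542), with lane as a term (0.0823) and with only the compared groups (0.0943).

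Of 14 genes of cholesterol synthesis, transport and efflux, 9 were higher and 2 lower in the tumor than in tumor mouse blood (13.3% and 10.3% of all genes). In the liver 5 were higher (3.98% of all genes), in the brain 3 were higher and 1 lower (3.56% and 1.41%), and in tumor mouse against sham mouse blood 1 was higher and 2 lower (1.63% and 1.69%). Sqle, squalene epoxidase of cholesterol synthesis, was at 10.3, 1.07, 11.2, 8.74 and 42.4 CPM in sham mouse blood, tumor mouse blood, brain, liver and tumor, and passed in tumor mouse against sham mouse blood and in each organ against tumor mouse blood (adjusted p of 0.00880 or less). With only the compared groups in the model, the calls in blood, brain and liver were lost (adjusted p of 0.0712 to 0.0828). Npc2, a lysosomal cholesterol carrier, and Abca1, which exports cholesterol, were higher in the tumor than in tumor mouse blood by 1.34 ± 0.19 (SE, adjusted p = 1.4e-05) and 1.15 ± 0.31 (SE, adjusted p = 0.00922), and Abca1 was also higher in tumor mouse than in sham mouse blood (1.40, SE 0.32, adjusted p = 0.0132). That last call was lost without sham replicate 2, without tumor mouse blood replicate 4 and with lane as a term (adjusted p up to 0.284).

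Acacb encodes acetyl-CoA carboxylase 2, whose product at the outer mitochondrial membrane restrains fatty acid oxidation (mm10, chromosome 5 from 114146535 to 114250761). It was read almost only in the brain. Brain libraries held 0.470, 0.290, 6.48 and 6.29 CPM in replicates 2 to 5. Both blood groups held 1 read each over 4 libraries, the liver 9 reads and the tumor 9 reads, and no library of these sources exceeded 0.139 CPM.

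The ratio of pooled reads between the brain (632 reads) and tumor mouse blood (1 read) was 622, with an exact 95% counting interval of 111 to 24622. This interval covers counting error only, because reads amplified without molecular identifiers can be copies of 1 molecule. The brain passed against tumor mouse blood (adjusted p = 0.00547), the tumor (log2 fold change 6.55, SE 1.61, adjusted p = 0.00645) and the liver (6.11, SE 1.58, adjusted p = 0.0401). Brain replicates 4 and 5, which held more than the other brain libraries, were both sequenced on lane 3, and with lane as a term none of these was called (adjusted p = 0.0517, 0.226 and 0.220). The liver call was also lost without brain replicate 4 (0.117) or 5 (0.109) or liver replicate 1 (0.0981), 2 (0.108) or 3 (0.118), and with only these groups in the model (0.0594). Over the 20 libraries Acacb and Apod had a Pearson's r of 0.771, a description of 2 genes that share the brain group.

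Of 13 genes of fatty acid synthesis, 7 were higher and 1 lower in the tumor than in tumor mouse blood (13.3% and 10.3% of all genes). In the brain 3 were higher (3.56% of all genes), in the liver 2 (3.98%), and in tumor mouse against sham mouse blood 1 was higher and 2 lower (1.63% and 1.69%). The median log2 fold change in the tumor was 3.32, against 0 over all genes. Scd2, a desaturase, rose to 167 ± 62.9 CPM from 15.8 ± 8.81 CPM (SD, n = 4, log2 fold change 3.41, SE 0.56, adjusted p = 9.4e-05), and was also higher than in the liver (adjusted p = 0.00143) and the brain (adjusted p = 0.000433). Me1, malic enzyme, was at 59.7 ± 38.1 CPM in the tumor and had 2 reads in tumor mouse blood, a ratio of pooled reads of 5797 with an exact 95% counting interval of 1604 to 47871. Tumor libraries had 1140 to 3763 CPM of epithelial and acinar markers summed over 12 genes, against 149 to 467 CPM in all other libraries, and their part in these values was not tested.

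Genes of fatty acid oxidation had no common direction. Of 14, 3 were higher and 4 lower in the tumor than in tumor mouse blood (13.3% and 10.3% of all genes), 1 was higher and 1 lower in the liver (3.98% and 1.2%), and 1 was higher in tumor mouse than in sham mouse blood (1.63%). In the brain 0 passed, where an unadjusted p under 0.05 gave 2 lower and DESeq2 gave 0. The gene called in blood was Acadl, long-chain acyl-CoA dehydrogenase, at 92.7 ± 21.7 CPM against 23.5 ± 8.98 CPM (SD, n = 4, log2 fold change 1.98, SE 0.26, adjusted p = 0.000101), which was called under all 15 alternatives. Cpt1a, the carnitine transferase that malonyl-CoA from enzymes like that of Acacb inhibits, fell in the tumor by 1.21 on the log2 scale (log2 fold change -1.21, SE 0.28, adjusted p = 0.00245) and lost the call with lane as a term (adjusted p = 0.0505). Hadh, a later enzyme, was at 34.4 ± 13.6 CPM in the tumor and 4.14 ± 4.01 CPM in the brain (SD, n = 4, brain minus tumor -3.05, SE 0.83, adjusted p = 0.0138).

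**Figure D5:**
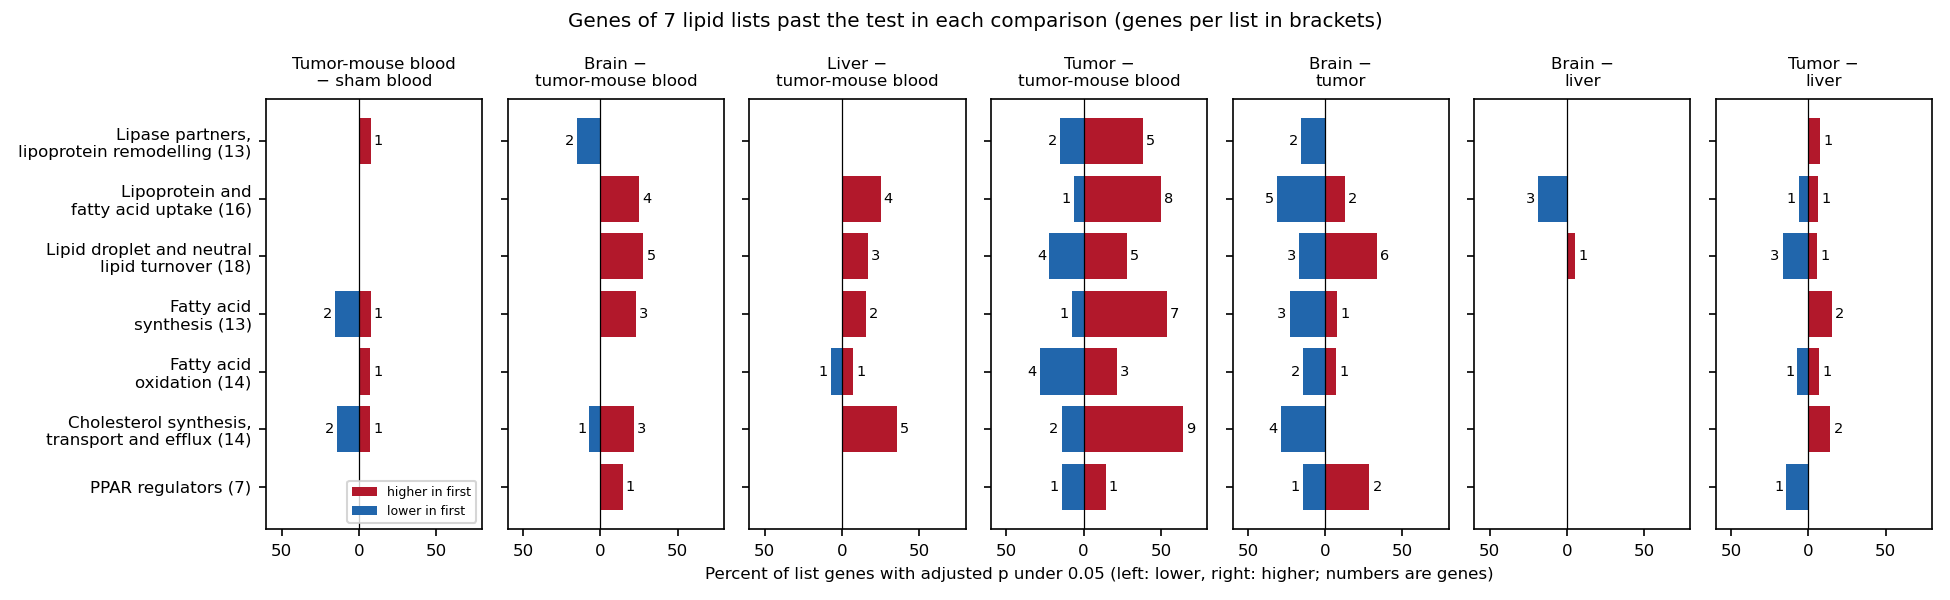
Percent of the genes of each of 7 lipid lists that passed an adjusted p of 0.05, with higher in the first group to the right and lower to the left, in each of the 7 comparisons, and the number of genes beside each bar. The tumor against tumor mouse blood has the most calls, up to 9 of 14 higher for cholesterol genes, where 13.3% of all genes were called higher, and the brain against the liver has 4 calls over all lists.

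Of 7 PPAR regulators, nuclear receptors of fatty acids and their partners, 1 was higher and 1 lower in the tumor than in tumor mouse blood, where 13.3% and 10.3% of all genes were called. Pparg, the receptor that drives lipid storage in fat cells and macrophages, was at 25.9 ± 10.99 CPM in the tumor and 1.04 ± 0.830 CPM in that blood (SD, n = 4, log2 fold change 4.64, SE 1.18, adjusted p = 0.00536), and at 0.350 ± 0.657 CPM in the brain (brain minus tumor -6.18, SE 1.27, adjusted p = 0.00142). Rxrb, a partner of these receptors, fell in the tumor by 1.06 on the log2 scale (log2 fold change -1.06, SE 0.14, adjusted p = 8.3e-06). When libraries were scaled by the size factors of DESeq2, the median of the 12275 genes at a mean of 1 CPM or more moved by 0.14 in the tumor against tumor mouse blood, -0.12 in brain minus tumor and 0.15 in tumor minus liver on the log2 scale, and no call of the 10 genes changed under it.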

How the data were processed

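RNA from sorted neutrophils (250 pg per library) was amplified with SMART-Seq v4, which keeps no strand, and sequenced as single reads on an Illumina HiSeq over 5 lanes. The deposited table holds raw counts per gene and, beside them, log2 values that the authors made with the rlog transform of DESeq2. The submitters' processing notes name mm10 and DESeq2, and the sources used here do not give the aligner, counter or annotation. Counts of 28762 genes with at least 1 read were tested with edgeR 4.0.16 in R 4.3.3 (TMM scaling, quasi-likelihood test, 1 mean per group, Benjamini-Hochberg adjustment, threshold 0.05). CPM values use TMM library sizes, and prior count 2 applies to log2 CPM in correlations. DESeq2 1.42.0 and limma 3.58.1 (on the deposited log2 rlog values) served as alternatives, beside another scaling, a filter on low counts, the compared groups alone, lane and replicate number as terms, a fold threshold and leaving out each library. Depth was 47388245 to 54472378 counts, and counting intervals are exact at 95%.

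The 10 genes and the gene lists were chosen with earlier results of these data known. Genes most like Lipg and Apod are the 5 with the highest Pearson's r among genes whose mean reached 10 CPM in some group. List genes named in the text came from the up to 4 called genes of highest mean CPM per list and comparison, and others were named after their values were seen, as were marker ratios. The edgeR test was tested on simulated data for the brain against tumor mouse blood. Counts of 27746 genes were drawn with the spread that edgeR had estimated. There edgeR called 5 unchanged genes and DESeq2 105. Of 50 genes raised by 3 on the log2 scale, they called 43 and 45. Calls made by DESeq2 and not by edgeR carry that limit. Promoters are from RefSeq, GRCm38.p6.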

Additional observations from a re-analysis of the deposited data

Results flagged for a closer look

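Levels of the 10 genes in the 5 groups gave 50 sets of 4 libraries, of which 4 held a library that stood apart from its group by Dixon's ratio at the 95% level, which chance does in about 1 in 20 sets. Lipg was at 23.65 CPM in liver replicate 2 and at 101.1 to 114.6 CPM in the other liver libraries. Apod was at 0.3714 CPM in tumor replicate 5 and at 0 to 0.01367 CPM in the other tumor libraries. Acacb was at 0.01917 CPM in sham mouse blood replicate 4 and at 0.02205 CPM in tumor mouse blood replicate 3, each from 1 read, with no read in the other libraries of these groups.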

How the results depend on the processing

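Over 66 pairs of gene and comparison, 990 alternative values were computed. These include Lipg in brain, liver and tumor against tumor mouse blood, where its values are a description with no test. Of the 990 values, 46 lost a call, 23 gained one and 1 reversed. The reversed one was Apod in tumor minus liver, at -3.695 on the log2 scale without tumor replicate 5 (-3.695 to 0.52 with any 1 library left out). A further 47 values changed sign without a call on either side. Members called in tumor mouse against sham mouse blood were 1, and 3 by DESeq2, with only the compared groups and with a replicate block, 0 at a log2 fold change of at least 2, and 0 to 1 with a library left out. Over all genes, 468 higher and 486 lower of 28762 became 1099 and 1455 of 17743 by DESeq2. With only the compared groups the counts were 500 and 610 of 23441, and with a replicate block 531 and 601 of 28762. For the brain against tumor mouse blood the members called were 2, 1 with lane as a term and 2 with any library left out. For the liver they were 2, 1 at the fold threshold and 1 to 2 with a library left out. For the tumor they were 4, 2 at the fold threshold and 3 to 5 with a library left out. Each of these tumor counts includes Lipg, which those blood libraries selected and which is a description there. For brain minus tumor they were 4, 2 with only the compared groups, 2 with lane, 1 at the fold threshold and 1 to 5 with a library left out. For brain minus liver they were 2, 0 with the replicate block, 1 with lane, 1 at the fold threshold and 0 to 2 with a library left out. For tumor minus liver they were 2, 1 with only the compared groups, 1 with lane, 0 at the fold threshold and 0 to 4 with a library left out. Calls over the 7 comparisons were 13 for lipase partners (DESeq2 26, lane 3, fold threshold 7, a library left out 7 to 15), 29 for uptake (fold threshold 18, left out 23 to 31), 31 for droplets (fold threshold 14, left out 27 to 32), 22 for synthesis (DESeq2 38, left out 16 to 27), 15 for oxidation (lane 6, fold threshold 3, left out 8 to 16), 29 for cholesterol (lane 16, fold threshold 11, left out 24 to 30) and 7 for PPAR regulators (DESeq2 12, limma on rlog values 13, fold threshold 4, left out 6 to 12). Calls over all genes moved with the setting too. In the tumor against tumor mouse blood, the main test called 3833 higher and 2973 lower of 28762 genes. There DESeq2 called 5195 and 3348 of 19416, and with lane as a term 2065 and 1827 of 28762 were called. The cause was not tested. Replicate numbers were not taken to pair the libraries, by a rule that asked every same-numbered pair for a correlation of deviations over 0.1. That rule is strict, so failing it does not show that the libraries were unpaired. It was over 0.1 in 5 of 19 same-numbered pairs (median 0.0402, range -0.107 to 0.155) and in 5 of 77 other pairs (median -0.0147, range -0.176 to 0.204). With a replicate block, Plin2 (adjusted p = 0.0317) and Pnpla2 (0.0394) in blood, Lpl in the liver (0.0427), Lipg (0.0328) and Plin2 (0.0255) in brain minus tumor and Lipg in tumor minus liver (0.0374) were called, and Lipa in brain minus tumor (0.0728) and brain minus liver (0.0524) and Acacb in brain minus liver (0.0682) were not. In blood that block joins sham and tumor mice of the same number, which are different animals, so it cannot stand for a shared mouse there. Genes with few reads, such as Acacb and Apod outside the brain, are limited by depth.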

Other observations

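The libraries of replicate 2 held the lowest Lipg of tumor mouse blood (36.2 CPM), of the brain (35.7 CPM) and of the liver (23.7 CPM), and the second lowest of the tumor (19.05 CPM). The labels do not say what a replicate number stands for, and no test was made.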
